A study of Mus musculus with 8 samples.

Results

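The genes described here encode the constitutive proteasome and its regulators in 4T1 cells, a mouse line of triple-negative breast cancer (TNBC). They were taken as every gene listed in both deposited tables whose symbol starts with Psma, Psmb, Psmc, Psmd, Psme or Psmf followed by a digit, without the immunoproteasome genes Psmb8, Psmb9 and Psmb10 and without pseudogenes. This gave 44 of the 25676 genes listed in both tables, and no symbol was repeated. They comprised 8 core alpha genes, 8 core beta genes, 6 ATPase genes of the 19S particle, 11 other 19S genes, 3 chaperones of 19S assembly, 5 activators and 1 inhibitor. The other 2, Psmc3ip and Psme3ip1, met the rule by symbol only and encode partners of Psmc3 and Psme3 that are not subunits.

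The 3 groups analysed were 4T1 cells given sdAb#07.81 for 24 h, sdAb-Con for 48 h, or sdAb#07.81 for 48 h, each with 2 libraries (RNA-seq of total RNA). sdAb#07.81 is a single-domain antibody against the nuclear protein NUPR1, sdAb-Con is its control antibody, and both were added as purified protein at 0.5 µg/ml to confluent cells kept at 1% oxygen. As the study describes them, the purified antibodies carried a Flag tag, a Tat peptide for entry into cells, a His tag and the C-terminal degron of ornithine decarboxylase, a sequence that sends a protein to the proteasome without ubiquitin. The control antibody therefore shared the dose, the tags and the degron. There was no sdAb-Con library at 24 h among the tables used, so the comparison of 48 h with 24 h has no control of its own and antibody exposure and time in culture cannot be told apart. Libraries of a second control group, Con, were not analysed here. One cell line was used, and the labels do not say whether the 2 libraries of a group came from separate cultures, so the p-values measure the spread between these libraries, which may be technical.

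The 26S proteasome degrades proteins marked with ubiquitin. Its 20S core is a barrel with an outer alpha ring at each end, which gates entry, and inner beta rings, which hold the proteolytic sites of Psmb6 (caspase-like), Psmb7 (trypsin-like) and Psmb5 (chymotrypsin-like). The 19S particle caps the core: an ATPase ring of Psmc subunits unfolds and threads the substrate, and the Psmd subunits hold ubiquitin receptors, scaffolds and the deubiquitinase Psmd14. Other caps can take its place, among them PA28 (Psme1 with Psme2, or Psme3 alone in the nucleus) and PA200 (Psme4). Interferon induces Psme1, Psme2 and the 3 immunoproteasome genes, while Nfe2l1 and the antioxidant response element raise the constitutive subunits together when proteasome activity falls short.

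Shared promoter letters were read from the RefSeq promoter windows of build GRCm38.p6, which covered 37 of the 44 genes (41 windows of 250 bases before to 50 after a start) and not Psma8, Psmb1, Psmb2, Psmb7, Psmc3, Psmd3 or Psmd7. The 100 bases before the start are shown for 3 beta genes that were lower than in the control antibody group, for 2 19S genes that were lower at 48 h than at 24 h, and for the 3 PA28 genes with the largest increase over that interval. Capitals mark any match on either strand to the antioxidant response element TGANNNNGC, its longer form (with C after TGA and A after GC), the CCAAT box or the GC box GGGCGG, and matches of different motifs may overlap. Psmb3 lay at chr11:97703334-97703433 on the plus strand, Psmb5 at chr14:54617996-54618095 on the minus strand and Psmb6 at chr11:70525257-70525356 on the plus strand. Psmc5 lay at chr11:106256085-106256184 and Psmd1 at chr1:86064519-86064618, both on the plus strand. Psme1 lay at chr14:55578394-55578493 on the plus strand, the upstream start of Psme2 at chr14:55591102-55591201 on the minus strand and Psme2b at chr11:48946411-48946510 on the minus strand.
Psmb3: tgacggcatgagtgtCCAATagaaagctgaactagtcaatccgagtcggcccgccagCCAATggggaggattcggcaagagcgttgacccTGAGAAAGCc
Psmb5: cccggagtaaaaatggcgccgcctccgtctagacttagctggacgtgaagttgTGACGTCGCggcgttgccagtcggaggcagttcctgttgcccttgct
Psmb6: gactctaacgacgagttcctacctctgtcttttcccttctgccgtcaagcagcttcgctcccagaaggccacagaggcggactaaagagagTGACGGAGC
Psmc5: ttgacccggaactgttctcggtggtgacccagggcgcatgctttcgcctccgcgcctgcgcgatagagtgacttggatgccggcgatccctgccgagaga
Psmd1: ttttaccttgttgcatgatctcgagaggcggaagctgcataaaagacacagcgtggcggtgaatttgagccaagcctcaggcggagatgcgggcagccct
Psme1: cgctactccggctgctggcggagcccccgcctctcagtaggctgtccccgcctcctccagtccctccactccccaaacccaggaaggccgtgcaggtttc
Psme2: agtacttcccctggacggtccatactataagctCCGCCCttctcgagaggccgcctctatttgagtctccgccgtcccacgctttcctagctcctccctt
Psme2b: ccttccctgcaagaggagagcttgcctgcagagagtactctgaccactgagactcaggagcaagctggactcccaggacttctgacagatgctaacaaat

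In Psmb3, Psmb5 and Psmb6 an antioxidant response element lay within the printed bases, and Psmb3 also held 2 CCAAT boxes. The printed bases of Psmc5, Psmd1, Psme1 and Psme2b held none of these motifs, and those of Psme2 held a GC box. Over whole windows, 21 of 37 members (56.8%) held TGANNNNGC against 45.0% of all 27025 genes with a promoter window, including all 5 core beta genes with a window. In the 250 bases before the start alone it was 15 of 37 (40.5%, against 38.7%). The longer form was present in 2 members (5.41%, against 3.45% of all genes), Psmd12 and Psme4. The CCAAT box was present in 15 members (40.5%, against 41.1%), and the GC box in 22 (59.5%, against 38.2%), among them 7 of 9 19S non-ATPase genes and 1 of 5 core beta genes.

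Library by library values were needed for any test, and the deposited tables gave only 1 mean normalized read count per gene and table. Because these means were written to 15 digits, whole reads per library could be recovered for 28410 of 28712 genes, all 44 members among them. The libraries held 11228459 to 14084115 recovered reads. The 302 genes not recovered were abundant ones, which carried 30.1% and 34.2% of the summed means of the 2 tables. Levels are given as normalized reads, that is, reads divided by a size factor common to the 6 libraries, always with library a before library b of a group (the letters only name the libraries).

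Cell type markers and transcript length were set beside the results once. The epithelial markers Krt8, Krt18 and Cdh1 had authors' means of 10794 to 15180 in the 2 tables, and Epcam stood at 2771 to 3344 normalized reads per library. Immune markers summed to 6.67 to 11.4 normalized reads over 5 genes and endothelial markers to 1.89 to 13.6 over 3, with Ptprc at 4.35 or less and Cdh5 at 1.04 or less. Of the 4 fibroblast markers, Pdgfra was at 948 and 1235 in the 24 h libraries and 606 to 650 in the 4 libraries of 48 h, and was called lower in sdAb#07.81 48 h than at 24 h (log2 fold change -0.77, limma voom adjusted p = 0.000361). The other 3 separated the 24 h libraries: Col1a2 was at 160 and 7.58, Dcn at 47.3 and 2.84, and Lum at 34.6 and 0, against 114 to 156, 30.4 to 43.8 and 16.2 to 30 in the 4 libraries of 48 h. Col1a2 and Lum were called higher than at 24 h (1.87 and 2.68), and without 24 h library b they stood at -0.27 and -0.40. The 24 h library b thus stood apart in these genes, and the calls that were lost without it are named below. Transcript length also moved with the groups. Across 13425 genes the log2 fold change of sdAb#07.81 48 h over sdAb-Con 48 h was higher where the longest annotated transcript was longer (Spearman's rho 0.447, a description across genes, which are not replicates), and the difference between libraries a and b of sdAb#07.81 48 h did so too (rho 0.369). For 48 h against 24 h the rho was -0.119.

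Within the proteasome, levels per kb of longest transcript spanned a wide range. The median over the 7 expressed core alpha genes was 1982 normalized reads per kb, from 699 (Psma2) to 4172 (Psma6, the gene of alpha-1 and the most abundant member). For the 7 expressed core beta genes it was 1101, from 463 (Psmb5, the chymotrypsin-like site) to 2670 (Psmb4). The 6 ATPase genes had a median of 1212 between 658 (Psmc4) and 2540 (Psmc1), and the 11 other 19S genes one of 1318 between 628 (Psmd13) and 2792 (Psmd8). Subunits of the core and of the 19S particle therefore overlapped in level. The assembly chaperones Psmd5, Psmd9 and Psmd10 were lower, at 460, 165 and 340 per kb. Among activators the median was 727, from 487 (Psme4) to 1608 (Psme2), and the inhibitor Psmf1, PI31, had the lowest value per kb of all expressed members (119). Without length, Psmf1 (453 normalized reads on average) lay above Psmb5 (416), Psmd9 (436) and Psmc3ip (188). Psmc3ip and Psme3ip1 stood at 146 and 408.

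The tissue-restricted subunits were at the floor. Psma8, the testis form of alpha-4, gave 0 reads in 4 libraries and 1 read each in a sdAb-Con 48 h and a sdAb#07.81 48 h library. Psmb11, the thymus form of beta-5, gave 1 read in a 24 h library and 2 in a sdAb#07.81 48 h library. Neither reached a mean of 10 in a table, so 42 of the 44 members entered the tests. Of those 42, counting error over the 6 libraries together was between 0.530% (Psmd2) and 2.95% (Psmc3ip) of the level. It is larger in a single library, and was not compared there with the spread between libraries.

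**Figure D1:**
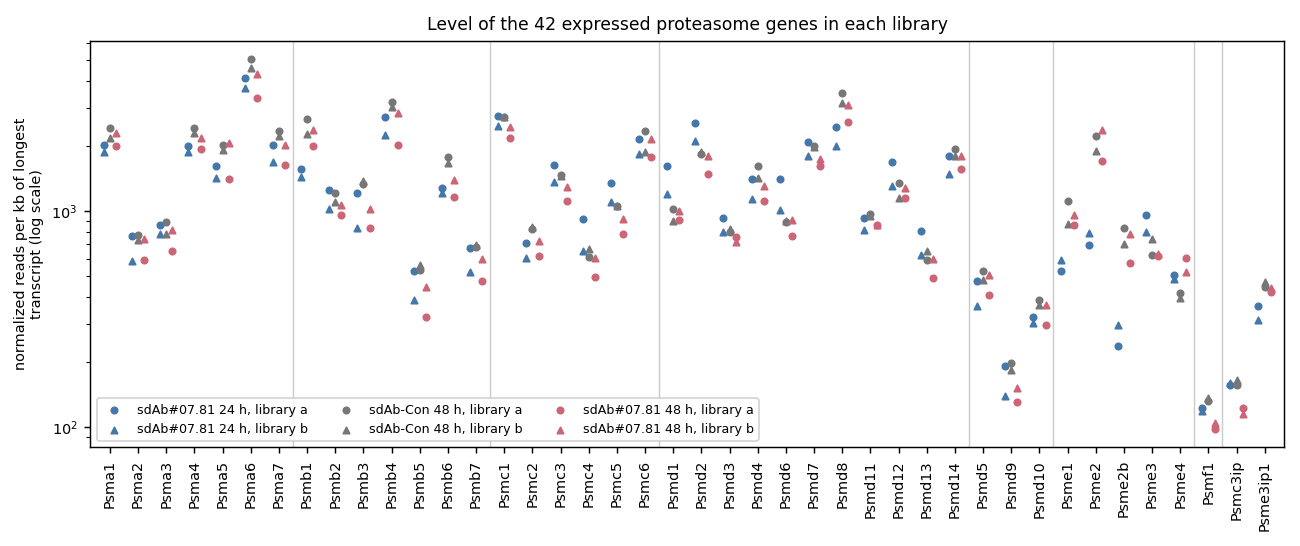
Normalized reads per kb of longest transcript (log scale) for the 42 expressed members in each of the 6 libraries, with circles for library a and triangles for library b, ordered core alpha, core beta, 19S ATPases, other 19S, assembly chaperones, activators, inhibitor and the 2 genes included by symbol only. Psma6 lies highest (4172 on average) and Psmf1 lowest (119), and Psme2 and Psme2b lie lower in both 24 h libraries than in the other 4.

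Most members differed in the same direction between the 2 libraries of a group. In sdAb#07.81 48 h, 39 of 42 members were lower in library a than in library b (median log2 ratio -0.24). The 24 h pair differed as much: 38 of 42 were higher in library a (median 0.24). The sdAb-Con 48 h pair was closer, with 28 higher in library a (median 0.08). Counted over all 6 libraries, 24 members had their lowest level in sdAb#07.81 48 h library a and 11 in 24 h library b, while 19 had their highest in sdAb-Con 48 h library a and 13 in 24 h library a. In the sdAb#07.81 48 h pair genes at large of like length also shifted, with medians of -0.17 (928 to 1479 bases) and -0.1 (1479 to 1928 bases). A shift of most members by this size between 2 libraries of the same group is the background for both comparisons below.

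**Figure D2:**
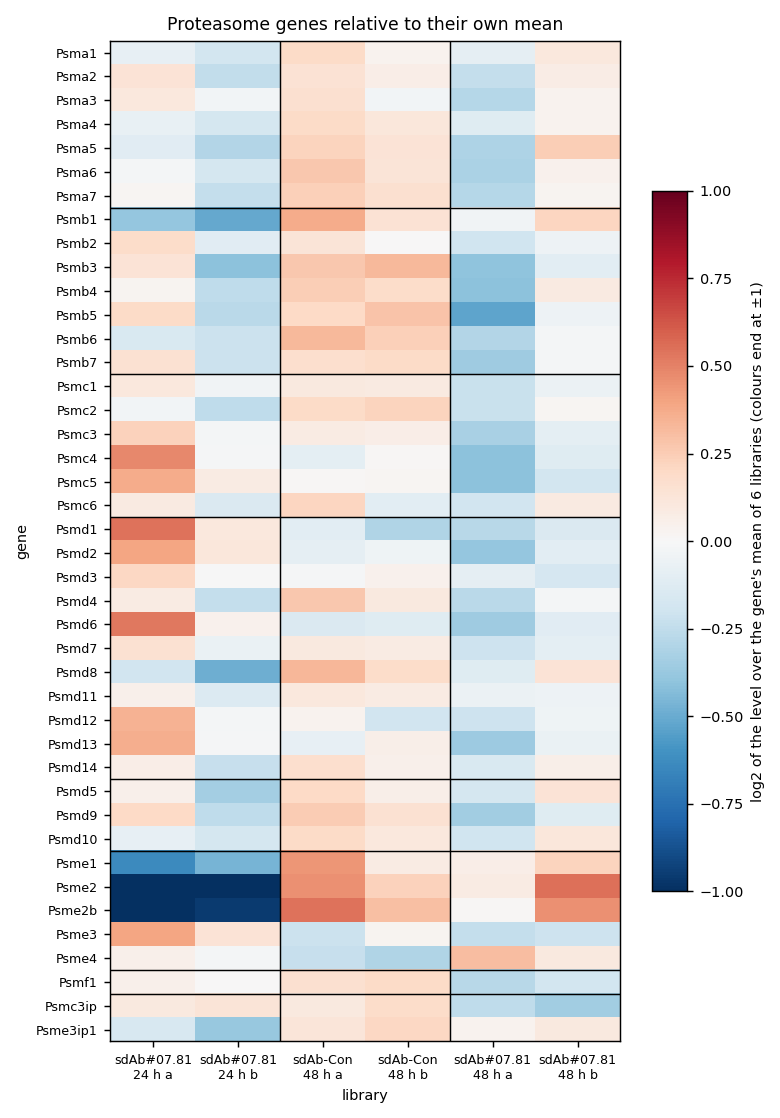
Each cell gives the log2 of a member's normalized reads in 1 library over its mean of the 6 libraries (red above, blue below, colours ending at ±1), with genes in the same order and vertical lines between groups. Psme1, Psme2 and Psme2b are blue in both 24 h libraries, and sdAb#07.81 48 h library a is blue for most core and 19S genes.

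The first comparison asked how the antibody against NUPR1 differed from its control antibody after 48 h. Of the 42 members, 10 fell and 1 rose in sdAb#07.81 (limma voom, Benjamini-Hochberg adjusted p under 0.05 over 13574 genes). As a share, 26.2% of members were called against 15.8% of all genes. Genes called lower made up 6.34% of all genes and genes called higher 9.43%. The median log2 fold change was -0.19 over members and -0.01 over all genes tested, and 41 of 42 members were below 0 against 51.7% of all genes. Core beta subunits supplied 5 of the 10 decreases, core alpha subunits 2, and Psmd4, Psmd9 and Psmf1 the remaining 3. Psme4 was the increase. In bulk RNA, less RNA per cell and fewer cells that carry it cannot be told apart.

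These calls did not hold up without 1 library. Without sdAb#07.81 48 h library a no member was called by limma voom (3 had an unadjusted p under 0.05), against 3.5% of all genes, and the median member was at -0.11. Without library a or without library b of sdAb-Con 48 h, 3 members were called in each case, against 9.53% and 9.08% of all genes, although the median member stayed at -0.17 and -0.24. With sdAb#07.81 48 h library b left out, 15 were called, against 16.8% of all genes. After the trends with transcript length, GC content and mean level were removed, 2 were called (Psmb7 and Psmc2, both lower), against 4.13% of all genes, the median member was at -0.03 and 27 of 42 were below 0.

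Both rings of the core shared the direction. The beta-3 gene Psmb3, a structural subunit, was at 2003 and 2084 normalized reads in sdAb-Con 48 h and 1256 and 1546 in sdAb#07.81 48 h. The groups did not overlap, and the decrease (log2 fold change -0.55 ± 0.116 SE, adjusted p = 0.0014, n = 2 libraries per group, limma voom) was the largest of the set. With the trends removed it was -0.32 (adjusted p = 0.121).

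All 3 catalytic genes of the constitutive core were among the decreases. Psmb5, for the chymotrypsin-like site that proteasome inhibitor drugs bind, was at 478 and 507 in sdAb-Con 48 h and 289 and 401 in sdAb#07.81 48 h (log2 fold change -0.53 ± 0.150 SE, limma voom adjusted p = 0.0145). Psmb6, for the caspase-like site, was at 1713 and 1612 against 1117 and 1346 (-0.43 ± 0.117, limma voom adjusted p = 0.0105). Psmb7, for the trypsin-like site, was at 1940 and 1970 against 1350 and 1700 (-0.36 ± 0.117, limma voom adjusted p = 0.0316). In each gene both antibody libraries lay below both control libraries, and library a was the lower of the antibody pair. With the trends removed, Psmb5 was at -0.16, Psmb6 at -0.11 and Psmb7 at -0.40, and only Psmb7 kept its call (limma voom adjusted p = 0.0458).

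Of the other core genes, 3 were called. Psmb4 was at 3754 and 3583 against 2382 and 3370 (log2 fold change -0.37), the alpha-1 gene Psma6 at 5237 and 4753 against 3482 and 4478 (-0.33), and the alpha-4 gene Psma7 at 3548 and 3358 against 2458 and 3062 (-0.33). Their limma voom adjusted p were 0.0353, 0.0407 and 0.0447. The 7 core genes that did not pass the test had log2 fold changes between -0.20 (Psma5) and -0.10 (Psma1). After removal of the trends the 7 alpha genes had a median of -0.03 and the 7 beta genes one of -0.11.

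In the 19S particle 1 of 17 genes was called. This was Psmd4, the ubiquitin receptor Rpn10, at 3402 and 3019 in sdAb-Con 48 h and 2343 and 2772 in sdAb#07.81 48 h (log2 fold change -0.32 ± 0.112 SE, limma voom adjusted p = 0.0437). None of the 6 ATPase genes passed the adjusted test, and 4 had an unadjusted p under 0.05 in limma voom, against 4037 of 13574 genes. Their log2 fold changes ran from -0.30 (Psmc2 and Psmc5) to -0.10 (Psmc6). Psmd1, a scaffold of the base, was at 3187 and 2784 against 2829 and 3105, a difference of 0.00 ± 0.109 SE on the log2 scale. Of the assembly chaperones, Psmd9 (p27) was called at 519 and 486 against 343 and 401 (-0.43, limma voom adjusted p = 0.0315), and Psmd5 and Psmd10 were at -0.14 and -0.18 without passing.

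Of the 5 activators 1 was called. Psme4, which encodes PA200, a single large protein that caps the core without ATP, was at 2701 and 2566 in sdAb-Con 48 h and 3923 and 3389 in sdAb#07.81 48 h. The groups did not overlap, and the increase was 1.39-fold (log2 fold change 0.48 ± 0.109 SE, limma voom adjusted p = 0.00272). Psme4 has the longest transcript of the members (6491 bases). Among all genes, those with the longest transcripts (the upper 2 of 12 bins by length) had median log2 fold changes of 0.21 and 0.34 in this comparison, and with the trends removed Psme4 stood at 0.23 (limma voom adjusted p = 0.248). Psme1, Psme2, Psme2b and Psme3 lay between -0.19 and -0.02 and did not pass, values within the range of the other members. Psmf1, whose product PI31 binds the core, was at 505 and 518 against 374 and 399 (-0.40, limma voom adjusted p = 0.0422) and stayed at -0.41 with the trends removed, then with an adjusted p of 0.0783 from limma voom.

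**Figure D3:**
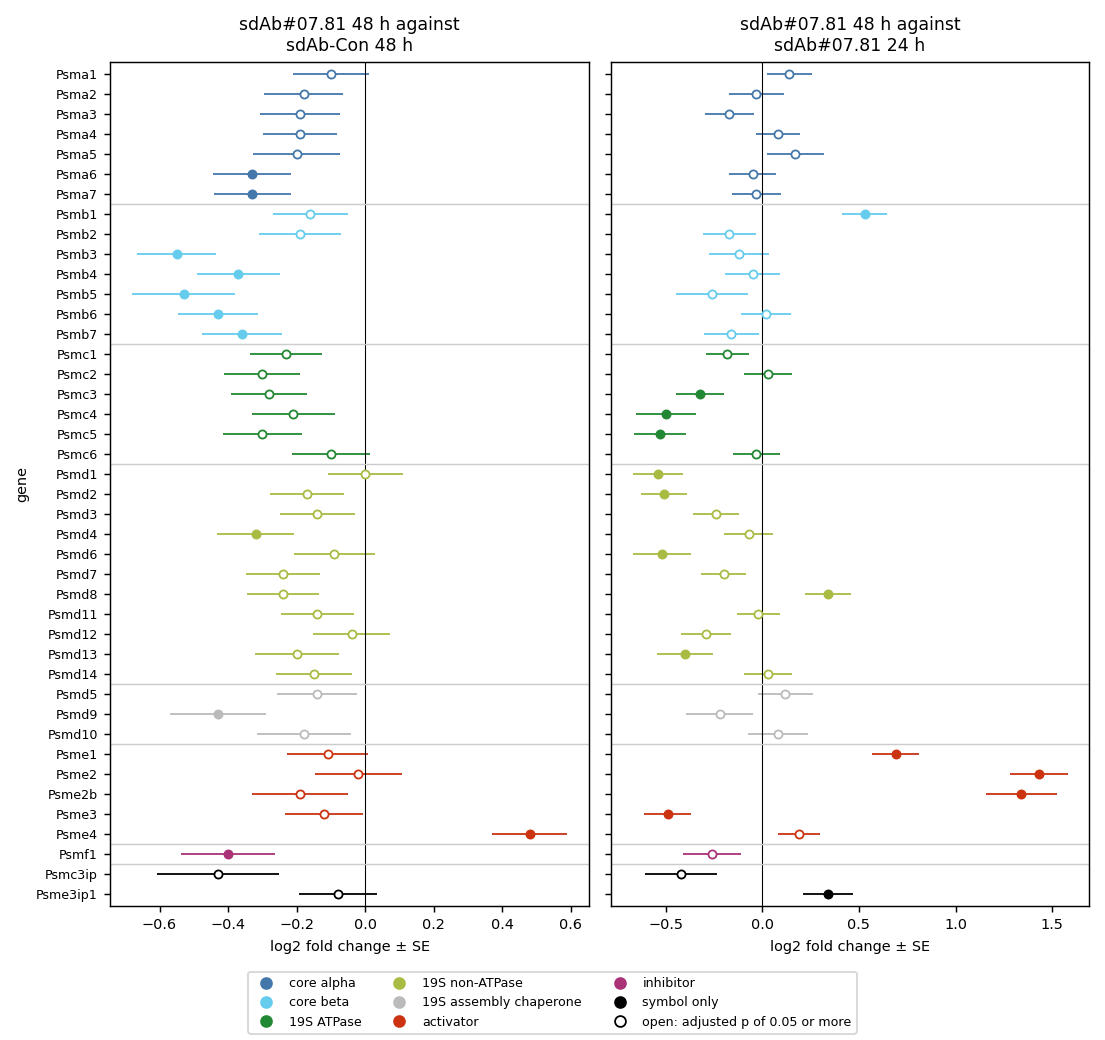
Log2 fold changes with their standard errors from limma voom for the 42 expressed members, on the left for sdAb#07.81 48 h against sdAb-Con 48 h and on the right for sdAb#07.81 48 h against 24 h, with filled points for an adjusted p under 0.05 over all genes. On the left 41 of 42 points lie below 0 and Psme4 lies at 0.48. On the right Psme2, Psme2b and Psme1 lie at 1.43, 1.34 and 0.69, and 7 of the 17 19S genes are filled below 0.

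**Figure D4:**
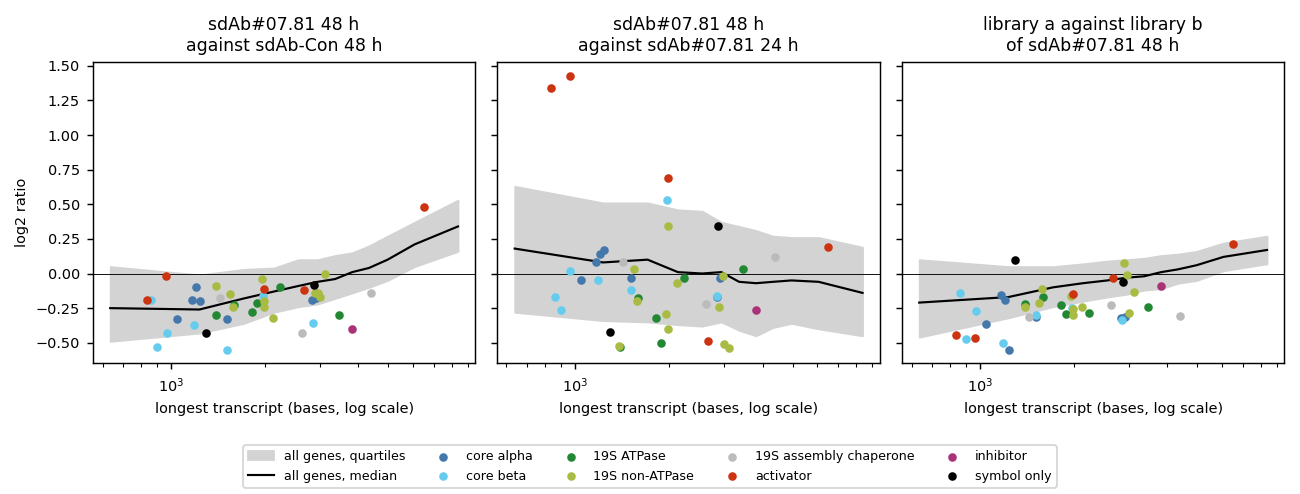
Log2 ratios against the length of the longest transcript (log scale) for sdAb#07.81 48 h against sdAb-Con 48 h, for sdAb#07.81 48 h against 24 h, and for library a against library b of sdAb#07.81 48 h. The black line joins the medians of 12 equal bins of all genes, the grey band spans their quartiles and coloured points are members. In the first panel the median of all genes climbs from -0.25 in the shortest bin to 0.34 in the longest, and in the third from -0.21 to 0.17.

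The second comparison set sdAb#07.81 at 48 h against 24 h. It called 14 of 42 members, 6 higher and 8 lower, which is 33.3% against 41.2% of all 13666 genes tested (19.6% higher and 21.6% lower). In this fit the share of members called was thus no greater than that of all genes (8 of 44 against 15.1% with no filter). By subcomplex, 3 of 5 activators rose and 1 fell, 7 of 17 19S genes fell and 1 rose, and 1 of 14 core genes rose, and the difference between subcomplexes was not tested. The 7 decreases of 19S genes became 2 without 24 h library a, 9 without 24 h library b and 1 without sdAb#07.81 48 h library a. The rising activators include Psme2 and its near-identical copy Psme2b. The median log2 fold change was 0.69 over activators, -0.24 over 19S genes and -0.04 over core genes, against -0.01 over all genes tested.

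The PA28 alpha and beta genes showed the largest increases. Psme2, for PA28 beta, was at 668 and 761 normalized reads at 24 h and 1640 and 2267 at 48 h (2.70-fold, log2 fold change 1.43 ± 0.150 SE, n = 2 libraries per group, limma voom adjusted p = 8.24e-07). Psme1, for its partner PA28 alpha, was at 1045 and 1180 against 1706 and 1893 (0.69 ± 0.122, limma voom adjusted p = 0.000218). Neither gene's groups overlapped. Psme2b, a close copy of Psme2 on chromosome 11, was at 198 and 247 against 482 and 657 (1.34, limma voom adjusted p = 1.65e-05). Reads may be split between these copies, and their sum was 866 and 1008 at 24 h and 2123 and 2924 at 48 h. All 3 were called without any 1 library and with the trends removed.

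The control antibody gave similar levels of these genes. In sdAb-Con 48 h Psme2 was at 2128 and 1819, Psme1 at 2209 and 1724, and Psme2b at 699 and 589, and these values overlapped those of sdAb#07.81 48 h in each gene. The immunoproteasome genes, which are not members, had the same order of groups. Psmb8 was at 741 and 785 at 24 h, 2488 and 2108 in sdAb-Con 48 h and 1899 and 2603 in sdAb#07.81 48 h. Psmb9 and Psmb10 rose with it from 24 h to 48 h of sdAb#07.81 (log2 fold changes 1.87 and 0.92, against 1.54 for Psmb8, all called by limma voom, and 2.04, 1.05 and 1.57 without 24 h library b). Without sdAb#07.81 48 h library b Psmb10 lost its call (0.66, limma voom adjusted p = 0.0506). Against sdAb-Con 48 h their log2 fold changes were -0.39, -0.25 and -0.04 for Psmb9, Psmb10 and Psmb8. None was called by limma voom (adjusted p of 0.0644, 0.280 and 0.874), and 1 had an unadjusted p under 0.05, against 4037 of 13574 genes.

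The constitutive counterparts of the 3 genes were not called over this interval, at -0.26 (Psmb5), 0.02 (Psmb6) and -0.16 (Psmb7). Psmb5 was called lower without 24 h library b (-0.49, limma voom adjusted p = 0.0198) and was at -0.02 without 24 h library a. Per kb of longest transcript, the ratio of Psmb8 to its counterpart Psmb5 was 0.736 and 1.07 at 24 h, 2.46 and 1.96 in sdAb-Con 48 h and 3.10 and 3.06 in sdAb#07.81 48 h. For Psmb10 to Psmb7 it was 0.197 and 0.306, then 0.528 and 0.440, then 0.487 and 0.557. For Psmb9 to Psmb6 it was 0.0236 and 0.0316, then 0.0975 and 0.0934, then 0.0928 and 0.104. The size of these ratios depended on the length used: per kb of coding length they were 1.49 to 6.29 for Psmb8 to Psmb5, 0.0921 to 0.260 for Psmb10 to Psmb7 and 0.0764 to 0.337 for Psmb9 to Psmb6. With either length each ratio was lower in both 24 h libraries than in the 4 others.

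**Figure D5:**
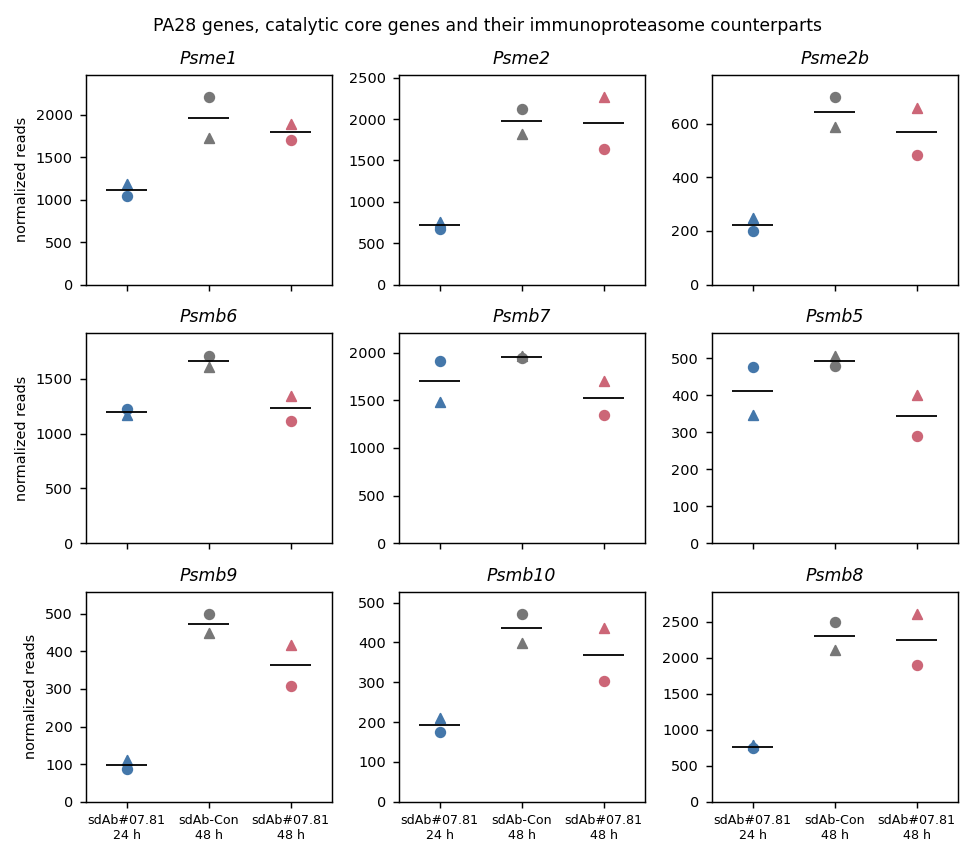
Normalized reads (axes from 0) in each library for the PA28 alpha and beta genes, the 3 catalytic genes of the constitutive core and, below each, its immunoproteasome counterpart, with circles for library a, triangles for library b and bars for the mean of the 2. The PA28 alpha and beta genes and the immunoproteasome genes are lowest in both 24 h libraries, and both sdAb#07.81 48 h points of Psmb5, Psmb6 and Psmb7 lie below both sdAb-Con 48 h points.

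The nuclear activator went the other way. Psme3, for PA28 gamma, was at 2540 and 2127 at 24 h and 1640 and 1675 at 48 h (log2 fold change -0.49 ± 0.121 SE, limma voom adjusted p = 0.00327). It was the only 1 of the 8 decreases that was called in all 4 fits that left out a library. In sdAb-Con 48 h it stood at 1664 and 1972. Psme4 was at 3269 and 3128 against 3923 and 3389 and did not pass (0.19, limma voom adjusted p = 0.193), but was called higher with the trends removed (0.31, limma voom adjusted p = 0.0341).

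Decreases in the 19S particle fell on both the ATPase ring and the Psmd subunits. The base scaffold Psmd1 (Rpn2) was at 5009 and 3703 at 24 h and 2829 and 3105 at 48 h (log2 fold change -0.54 ± 0.131 SE, limma voom adjusted p = 0.00294). Its fellow scaffold Psmd2 (Rpn1) was at 7659 and 6303 against 4443 and 5406 (-0.51, limma voom adjusted p = 0.00251). Neither overlapped between the groups. The ATPase genes Psmc5 (Rpt6) and Psmc4 (Rpt3) were at 1876 and 1531 against 1092 and 1275, and at 1728 and 1227 against 932 and 1142. Their log2 fold changes were -0.53 and -0.50, with limma voom adjusted p of 0.00398 and 0.0146. Psmc3 (Rpt5) was at 2951 and 2477 against 2012 and 2355 (-0.32, limma voom adjusted p = 0.0473).

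Of the lid, Psmd6 (Rpn7) was at 1953 and 1397 against 1064 and 1258 (log2 fold change -0.52, limma voom adjusted p = 0.00983). Psmd13 (Rpn9) was at 1608 and 1240 against 971 and 1194 (-0.40, limma voom adjusted p = 0.0348). The lid subunit Psmd8 (Rpn12) moved in the opposite direction, from 4862 and 3948 to 5089 and 6089 (0.34 ± 0.121 SE, limma voom adjusted p = 0.0323). It lost its call without 24 h library b (0.18, limma voom adjusted p = 0.30) and without sdAb#07.81 48 h library b (0.21). The 9 19S genes not called ran from -0.29 (Psmd12) to 0.03.

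How many members passed depended on the library that was left out. Without 24 h library a, 3 members were called lower and 6 higher, against 37.3% of all genes in either direction, and the median member was at 0.07. Without 24 h library b, which stood apart in the fibroblast markers, 13 were called lower and 4 higher, against 40.3% of all genes, with a median of -0.23. Leaving out sdAb#07.81 48 h library a gave 2 lower and 6 higher (26.4% of all genes), and leaving out its library b 8 lower and 4 higher (25.9% of all genes). The calls of Psmc3, Psmc4, Psmd6 and Psmd13 were lost without 24 h library a and without sdAb#07.81 48 h library a, that of Psmd1 without the former (-0.32) and those of Psmc5 and Psmd2 without the latter (-0.41 and -0.36). With the trends removed 10 were lower and 7 higher, against 40.4% of all genes, all 14 calls stayed in their direction, and Psmd12 (-0.33, limma voom adjusted p = 0.048), Psmc3ip (-0.55) and Psme4 (0.31) were called in addition. The sdAb-Con 48 h libraries, which the 24 h comparison did not use, had Psmd1 at 3187 and 2784, Psmc4 at 1155 and 1248, and Psmd6 at 1228 and 1251, below both 24 h libraries for Psmd1 and Psmd6.

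Among core genes the 1 call was Psmb1, the beta-6 gene, at 3091 and 2833 against 3931 and 4682 (log2 fold change 0.53 ± 0.115 SE, limma voom adjusted p = 0.00132). It was called in every fit that left out a library, and in sdAb-Con 48 h it was at 5217 and 4449. No core alpha gene was called by limma voom, nor at an unadjusted p under 0.05 (0 of 7, against 6724 of all 13666 genes). Values ran from -0.17 (Psma3) to 0.17 (Psma5). Psma5 stood at 0.45 without sdAb#07.81 48 h library a and at -0.11 without its library b. The 6 other core beta genes ran from -0.26 (Psmb5) to 0.02 (Psmb6), and their groups overlapped, with Psmb3 (-0.40) and Psmb5 called lower without 24 h library b. Psme3ip1 was called higher (1048 and 901 against 1204 and 1257, 0.34, limma voom adjusted p = 0.042), a call lost without 24 h library b (0.22) and without either library of sdAb#07.81 48 h. Psmc3ip, a meiotic recombination factor, stood at 201 and 206 against 158 and 148 and did not pass (-0.42, limma voom adjusted p = 0.0862), but was called lower with the trends removed (-0.55, limma voom adjusted p = 0.0269).

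The deposited means of the 2 tables share the sdAb#07.81 48 h libraries, so their ratio reads sdAb-Con 48 h against 24 h in damped form. Among expressed members it was highest for Psme2b (1.48), Psme2 (1.42), Psme1 (1.25) and Psmb1 (1.21), and lowest for Psmd1 (0.784), Psmd6 (0.817), Psme3 (0.840) and Psmd2 (0.850). Psma8 (1.94) and Psmb11 (0.681) lay outside these, on 2 and 3 reads in all.

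Genes of the pathway outside the rule were counted from lists. Of the 2 19S subunits with other names, Sem1, the smallest subunit of the lid, was lower than in sdAb-Con 48 h (1964 and 1930 against 1351 and 1588, log2 fold change -0.40, limma voom adjusted p = 0.0137) and Adrm1, a ubiquitin receptor, was not called (-0.10). The call of Sem1 was lost with the trends removed (-0.35, limma voom adjusted p = 0.072) and without sdAb#07.81 48 h library a (-0.29), and also without either sdAb-Con 48 h library, where the fold change stayed at -0.40 and -0.41. Neither was called against 24 h (0.11 for Sem1 and -0.25 for Adrm1), although Adrm1 was called lower without 24 h library b (-0.39). None of the 5 core assembly chaperones was called in either comparison by limma voom. In each, 3 had an unadjusted p under 0.05, against 4037 of 13574 genes for sdAb-Con 48 h and 6724 of 13666 for 24 h. Values ran from -0.57 (Psmg4) to 0.03 (Psmg2) against sdAb-Con 48 h and from -0.52 (Psmg3) to 0.55 (Psmg4) against 24 h. Without 24 h library b, Psmg3 and Pomp stood at -0.67 and -0.54 against 24 h, and without 24 h library a at -0.37 and -0.17. Against sdAb-Con 48 h, Psmg3 and Psmg4 stood at -0.78 and -0.82 without sdAb#07.81 48 h library b. They stood at -0.29 and -0.31 without its library a.

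Regulators of proteasome genes formed a list of 6. Nfe2l1, the transcription factor of the constitutive subunits, was too abundant for its reads to be recovered (authors' means 13538 and 16310 in the 24 h and the sdAb-Con table). Of the 5 others, Ddi2, the protease that activates Nfe2l1, was higher than in sdAb-Con 48 h (948 and 997 against 1351 and 1174, 0.38, limma voom adjusted p = 0.0255), and Vcp was the lowest at -0.12. Ddi2 has a longest transcript of 9553 bases, stood at 0.05 with the trends removed (limma voom adjusted p = 0.876) and lost its call without sdAb#07.81 48 h library a (0.28), and also without either sdAb-Con 48 h library at fold changes of 0.34 and 0.42. Against 24 h, Ngly1, the enzyme that removes sugar chains from Nfe2l1, was lower (337 and 375 against 203 and 261, -0.63, limma voom adjusted p = 0.00759, lost without sdAb#07.81 48 h library a at -0.45), and Akirin2, which imports proteasomes into the nucleus, was at 0.13 and did not pass. Of 11 deubiquitinases, shuttles and partners, none was called against sdAb-Con 48 h by limma voom (-0.30 for Ubqln2 to 0.21 for Ecpas). Nor had any an unadjusted p under 0.05 in limma voom, against 4037 of 13574 genes. Against 24 h, 4 were lower and 1 higher, where 41.2% of all genes were called, from Ubqln2 (-0.77) to Zfand5 (0.60), both of which were called whichever library was left out, while Usp14, Uchl5 and Ubqln4 lost their calls without 24 h library a.

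The last list held ornithine decarboxylase with its antizymes. Odc1, which encodes ornithine decarboxylase, whose C-terminus the purified antibodies carried, was at 13570 and 16193 at 24 h, 5915 and 6773 in sdAb-Con 48 h and 3972 and 4071 in sdAb#07.81 48 h. The 3 groups did not overlap, and sdAb#07.81 48 h was lower than 24 h (-1.89, limma voom adjusted p = 4.15e-10) and lower than sdAb-Con 48 h (-0.65, limma voom adjusted p = 5.6e-05), whichever library was left out. The antizyme gene Oaz2 was higher than at 24 h (0.46, but 0.34 with limma voom adjusted p = 0.0614 without 24 h library b, and not called without sdAb#07.81 48 h library b) and stood at -0.08 against sdAb-Con 48 h, and Oaz1 was not called in either comparison.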

How the data were processed

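RNA from 4T1 cells was sequenced as 8 libraries (4 groups of 2), of which the 2 deposited tables concern 3 groups. The submitters' processing notes name cutadapt 1.9.1, HISAT2 2.0.1, HTSeq 0.6.1 and build GRCh38.p14, a human build, although the gene identifiers are mouse ones. The coordinates of the files are of a build not given in the sources used here and were not printed (0 of 44 members had the same coordinates in GENCODE M21). Each table gives the authors' mean normalized count per gene as a signal over the 4 libraries of its 2 groups. The remaining numeric columns are the authors' own fold changes, errors and p-values and were not used.

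A mean is a sum of whole reads, each weighted by its library's size factor. The size factors (0.916 to 1.09) were read from the lowest means of each table, those of genes with a single read. With them, the reads of 11731 and 11651 genes with a mean under 5 were found directly. Reads of the other genes were solved by lattice reduction over both tables. Every recovered gene had 1 solution, and 0 of 2821 decoy means had one. A pair of libraries carried the same reads in both tables in 9769 of 9769 low genes. These were taken as the group named in both tables, sdAb#07.81 48 h, and the others as the group named in 1 table. Size factors recomputed from the reads differed from those read off the lowest means by at most 0.213%. Letters a and b carry no replicate number.

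Genes with a mean of at least 10 were tested in limma 3.58.1 (voom weights, R 4.3.3) on the recovered reads with the size factors of the table, with Benjamini-Hochberg adjustment over all genes tested and a threshold of 0.05. A negative binomial count test had been planned if counts per library were given, and no test otherwise. The deposited column is a mean, so limma on the recovered reads was a choice outside that plan. On simulated reads for sdAb#07.81 48 h against sdAb-Con 48 h (13574 genes), 30 of 100 genes changed by 0.5 and 87 of 100 changed by 1 on the log2 scale were called, with 13 false calls among 13374. The simulation gave every gene the same dispersion and held no length trend or shift between libraries of a group. Its rate of false calls therefore need not hold in these data. Lengths, coding lengths and GC content came from GENCODE M21 by Ensembl identifier. Trends were removed with third-degree polynomials. Alternatives were no filter, a mean of at least 100, each library left out, and, chosen after seeing the data, unweighted log2 values, scaling to total reads, 1 fit over the 3 groups and removal of the trends. The members and gene lists were chosen with earlier results of these data known. All members are accounted for: those named with values include every member called, the highest and lowest per kb in each subcomplex, those with a mean under 10 and those with extreme ratios between the tables, and of each list the highest and lowest. One list of genes is not reported here. Counting errors given as a percent of a level cover counting only, since reads are not independent molecules, whereas standard errors are those of limma and come from the spread between libraries.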

Additional observations from a re-analysis of the deposited data

How the results depend on the processing

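Against sdAb-Con 48 h, 11 members were called in the fit reported. The number was 3 with no filter, 3 in 1 fit over the 3 groups and 2 with the trends with length, GC content and mean level removed, and it lay between 0 and 15 when a library was left out (0 without sdAb#07.81 48 h library a, where 3 had an unadjusted p under 0.05 in limma voom). Over all genes the 2141 calls became 1164, 1346, 555 and, with a library left out, 475 to 2287. Against 24 h, 14 of 42 members were called (41.2% of all genes) and, with no filter, 8 of 44 (15.1% of all genes). Which share was greater, that of members or of all genes, thus depended on the filter. With a library left out, the median member lay between -0.23 and 0.07. Of 250 values of called members under alternatives, 170 kept direction and call and 80 kept direction only. Of the members not called, 17 of 31 against sdAb-Con 48 h and 17 of 28 against 24 h changed sign in at least 1 alternative. Of the calls against sdAb-Con 48 h, 0 of 11 were kept in all 4 fits that left out a library; of those against 24 h, 5 of 14 were (Psme1, Psme2, Psme2b, Psmb1 and Psme3). Where a library was left out, the lone library of its group was assumed to vary like the others. Per kb of coding length the median level was 2967 for core, 1884 for 19S and 2158 for activator genes, and per kb of median transcript length 2442, 2418 and 2615, against 1573, 1318 and 727 per kb of longest transcript, so the place of the activators depends on the length used. With the 250 bases before the start only, 15 of 37 members held the antioxidant response element (40.5%, against 38.7% of all genes) in place of 21, and 1 and not 2 held its longer form. No paired analysis was possible because the recovered libraries carry no replicate number. The planned count test of a second tool was not run, summing repeated symbols gave nothing to change, and ratios between the tables' means past a fold were not counted since reads per library were available.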
